A study of Mus musculus with 4 samples.

Results

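The 9 genes described here, Gnpat, Agps, Far1, Amacr, Cat, Dao, Hao2, Nudt19 and Mpv17l, encode enzymes of ether lipid synthesis and accessory enzymes and membrane proteins of the peroxisome. They were taken by gene symbol, 9 of the 32285 genes in the files, and the list was chosen by measured values of these same libraries, with the levels in S3 proximal tubule cells of old control mice in view. Their levels in those cells are therefore given as a description and carry no test. All 9 were detected and all 9 passed a mean level of 10 CPM (the UMIs of a gene over all UMIs of the same cells, scaled to parts per 1000000) in the proximal tubule classes described below.

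Peroxisomes are single-membrane organelles that are abundant in proximal tubular epithelial cells (PTECs). Their oxidases shorten and modify fatty acids, amino acids and hydroxy acids and release hydrogen peroxide, which catalase breaks down inside the same organelle. Ether lipids, among them the plasmalogens of cell membranes, begin in the peroxisome and are completed in the endoplasmic reticulum. TFEB is a transcription factor that drives genes of lysosomes and autophagy and binds DNA sites containing CACGTG.

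The study examined the role of TFEB in kidney aging with single-cell RNA-Seq of the renal cortex of male mice. There were 4 libraries, 1 for each condition, and each pooled the cortex of 2 or 3 mice before digestion. Mice in all 4 groups carried a floxed Tfeb gene. The young control library came from Tfeb fl/fl mice 6 weeks old, the young KAP library from Tfeb fl/fl KAP mice 6 weeks old, the aged control library from Tfeb fl/fl mice 24 months old and the aged KAP library from Tfeb fl/fl KAP mice 24 months old. KAP stands for a Cre recombinase under the kidney androgen-regulated protein promoter, which is androgen inducible and acts mainly in the S3 segment, the last of the 3 segments of the proximal tubule. No animal-level replicate exists in these pools, so differences between libraries carry an interval for counting error only, and neither a p-value nor an error between mice can be given.

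After filtering, 10045, 7895, 5704 and 6547 cells were kept in the young control, young KAP, aged control and aged KAP libraries, with a median of 11877 to 14849 unique molecular identifiers (UMIs) per cell and 20.3% to 21.9% of UMIs from mitochondrial genes. Between 8 and 24 cell barcodes were shared by any pair of libraries. Clusters were named from fixed marker lists, and 12 classes had at least 20 cells in every library. The S3-like class held 1776, 1533, 1685 and 1425 cells and the S1/S2-like class 1816, 1679, 988 and 925 cells, in the same order. Only 3 of the 7 S3 markers were detected in the 4 large S3-like clusters, and 1 of those clusters, with near-equal scores for S3 (0.059) and S1/S2 (-0.035), was also left out as a check. Tfeb itself was at 6.23, 5.39, 5.17 and 2.01 CPM in S3-like cells of the young control, young KAP, aged control and aged KAP libraries, from 227, 162, 212 and 69 UMIs. The aged KAP library was thus the low one (log2 ratio -1.36 against aged control, 95% interval -1.77 to -0.96), while the young KAP library lay within counting error of its control (log2 ratio -0.21, -0.51 to 0.09). A 3' tag that lies outside the floxed part of the gene would not report the deletion.

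The genes lie on 7 chromosomes of the mouse genome (GRCm38.p6). In the ether lipid group, Gnpat occupies chr8:124863033-124890057 (plus strand, 16 exons), Agps chr2:75832177-75931350 (plus strand, 20 exons) and Far1 chr7:113513719-113571506 (plus strand, 13 exons). Amacr lies at chr15:10981756-10996624 (plus strand, 5 exons). The oxidative enzymes Cat, Dao and Hao2 lie at chr2:103453904-103485153 (minus strand, 13 exons), chr5:113999635-114025675 (plus strand, 11 exons) and chr3:98874519-98895376 (minus strand, 9 exons). Nudt19 occupies chr7:35547185-35558643 (minus strand, 3 exons) and Mpv17l chr16:13903161-13949619 (plus strand, 4 exons). All 9 are annotated as protein-coding. Agps overlaps the noncoding gene Gm34861, Far1 overlaps Far1os, and Mpv17l overlaps Pdxdc1 and the pseudogene Gm15950. How reads in those stretches were counted was not tested.

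RefSeq promoter windows, from 250 bases before to 50 bases after an annotated transcript start, were matched for 7 of the 9 genes, with 3 starts for Dao and 1 for each of the others, and none for Amacr or Mpv17l. They are shown for Gnpat, the one ether lipid gene whose window holds CACGTG, for Agps and Nudt19, the pair with the lowest relative level in the aged control library, and for Hao2, the one gene that was far higher in both aged libraries. Capitals mark CACGTG.
Gnpat, chr8:124862783-124863082, plus strand: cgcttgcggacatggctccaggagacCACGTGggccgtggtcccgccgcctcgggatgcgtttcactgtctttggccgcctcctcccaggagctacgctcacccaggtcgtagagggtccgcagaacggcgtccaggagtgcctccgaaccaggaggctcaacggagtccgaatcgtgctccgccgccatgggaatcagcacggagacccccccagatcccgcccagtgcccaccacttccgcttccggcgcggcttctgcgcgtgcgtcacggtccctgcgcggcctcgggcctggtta
Agps, chr2:75831927-75832226, plus strand: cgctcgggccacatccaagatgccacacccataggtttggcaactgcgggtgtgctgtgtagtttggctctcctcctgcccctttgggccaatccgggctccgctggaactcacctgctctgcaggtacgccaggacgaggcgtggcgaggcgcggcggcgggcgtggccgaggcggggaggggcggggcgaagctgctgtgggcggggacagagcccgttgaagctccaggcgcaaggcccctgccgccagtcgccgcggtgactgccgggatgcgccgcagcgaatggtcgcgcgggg
Nudt19, chr7:35555879-35556178, minus strand: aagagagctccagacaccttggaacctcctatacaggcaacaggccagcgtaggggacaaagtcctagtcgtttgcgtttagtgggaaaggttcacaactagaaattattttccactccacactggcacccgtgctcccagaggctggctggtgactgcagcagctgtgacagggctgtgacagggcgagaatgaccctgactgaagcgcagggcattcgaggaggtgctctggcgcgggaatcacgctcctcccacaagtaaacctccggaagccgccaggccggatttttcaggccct
Hao2, chr3:98893181-98893480, minus strand: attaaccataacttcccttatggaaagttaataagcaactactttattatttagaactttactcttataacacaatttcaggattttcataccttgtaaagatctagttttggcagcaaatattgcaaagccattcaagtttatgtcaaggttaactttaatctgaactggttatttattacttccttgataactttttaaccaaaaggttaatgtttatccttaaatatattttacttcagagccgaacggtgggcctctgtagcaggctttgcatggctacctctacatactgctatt

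In the Gnpat window CACGTG began 224 bases before the start (position -224), and 1 of the 3 Dao windows held it at position -85. The other 5 matched genes, Agps, Far1, Cat, Hao2 and Nudt19, had none in these windows. Of 32851 RefSeq windows, 7.15% hold CACGTG. The short site AGGTCA, bound by nuclear receptors such as PPARalpha with RXR, was found on either strand in the Cat window (position -204) and in another Dao window (position -72), against 16.3% of all windows. A direct repeat of AGGTCA spaced by 1 base, on either strand, occurred in 13 of all windows and in 0 of the 9 windows of these genes. The Gnpat, Agps and Nudt19 windows had a GC content of 68.7%, 71.0% and 57.0%, and the Hao2 window 32.3%.

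The proximal tubule was the main site of most of these genes, but the ether lipid enzymes were widespread. Means over the 4 libraries were compared across the 12 classes for each gene on its own. Gnpat, which attaches the acyl chain that starts ether lipid synthesis, was at 31.7 CPM in S3-like and 27.6 CPM in S1/S2-like cells, below type B intercalated-like cells at 50.5 CPM and above myeloid-like cells at 15.4 CPM. Both intercalated-like classes lay above S3-like cells in every library and myeloid-like cells below all others, but each of the 9 classes in between overlapped its neighbours in range over the libraries. Agps, which swaps that acyl chain for a fatty alcohol and so makes the ether bond, was at 133 CPM in S3-like cells, 4.68-fold its level in S1/S2-like cells (28.4 CPM). The next class, myeloid-like cells, reached 47.2 CPM, and its range did not overlap that of S3-like cells. Far1, the reductase that supplies the fatty alcohol, was at 178 CPM in S3-like cells, 118 CPM in S1/S2-like cells and 109 CPM in collecting duct principal-like cells, and at 40.2 CPM in distal convoluted tubule-like cells, its lowest class. S1/S2-like and principal-like cells overlapped in range for Far1, while S3-like cells stood above both.

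The other 6 genes were more strongly proximal. Amacr, the racemase that lets branched-chain and bile acid intermediates enter beta-oxidation, was at 243 CPM in S3-like, 105 CPM in S1/S2-like and at most 14.7 CPM in the mean of any other class. Cat, the catalase gene, was at 694 and 511 CPM in S3-like and S1/S2-like cells against 59.1 to 106 CPM elsewhere. Dao, the D-amino acid oxidase, was the only one of the 9 with a higher mean in S1/S2-like cells (208 CPM) than in S3-like cells (179 CPM), and all other classes were at 1.58 to 7.90 CPM. Hao2, an oxidase of long-chain 2-hydroxy acids, was at 410 CPM in S3-like and 208 CPM in S1/S2-like cells. These classes overlapped in range over the libraries (177 to 647 and 135 to 279 CPM), but within each library S3-like cells were the higher. Nudt19, a coenzyme A hydrolase of kidney peroxisomes whose older name is androgen-regulated protein RP2, had the largest segment difference, 5.05-fold (672 against 133 CPM). Its S1/S2-like level overlapped that of type B intercalated-like cells at 128 CPM. Mpv17l, a membrane protein linked to the handling of reactive oxygen species, was 3.85-fold higher in S3-like than in S1/S2-like cells (267 against 69.3 CPM).

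**Figure D1:**
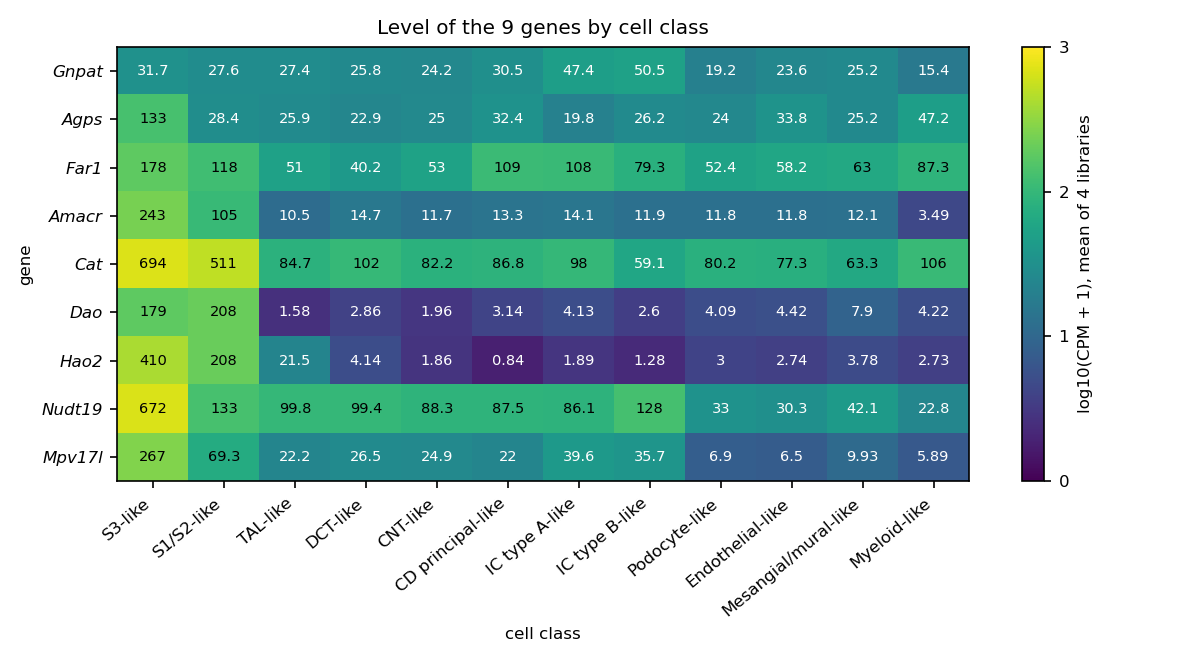
Heat map of the 9 genes (rows) in the 12 classes with at least 20 cells in all 4 libraries (columns); each cell prints the mean CPM of the 4 libraries, and the colour gives it as log10(CPM + 1). Agps (133 CPM), Nudt19 (672 CPM) and Mpv17l (267 CPM) are highest in S3-like cells, Dao and Hao2 fall to a few CPM outside the proximal tubule except for Hao2 in thick ascending limb-like cells (21.5 CPM), and Gnpat spans only 15.4 to 50.5 CPM.

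Free RNA from lysed proximal cells would give proximal genes a like, low level in every other class. The counts had already been corrected for free RNA, so 11 reference genes of the proximal tubule show only what was left of it. Whether that correction took a like share from every gene was not tested. A level above the reference genes therefore does not by itself show expression in a class. In the 10 other classes those reference genes had a median of 0% to 4.35% of their proximal level per library, and the highest single value was 10.5%. Gnpat (47.4% to 202%), Agps (12.1% to 77.0%), Far1 (23.7% to 79.0%) and Cat (8.1% to 21.4%) lay above every reference gene of the same class in all 4 libraries. Dao stayed at 0% to 5.15%, within the reference range in most classes. Whether its low counts outside the proximal tubule are background was not tested. Hao2 also stayed at 0% to 4.18%, except in thick ascending limb-like cells. There Hao2 was at 32.5, 23.2, 20.4 and 10.1 CPM in the young control, young KAP, aged control and aged KAP libraries, from 739, 408, 158 and 106 UMIs. Both young libraries were thus above both aged ones, whereas in the proximal classes both aged libraries were the high ones. As a share of the proximal level, itself 202, 156, 482 and 514 CPM, these were 16.1%, 14.8%, 4.24% and 1.96%. The aged values lay below the highest reference gene, at 5.04% and 4.65% in those libraries. They lay above the reference median, at 0.97% and 0.34%. Whether they are background was not tested.

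In S3-like cells the ether lipid enzymes did not move as a group. Gnpat was at 28.5 CPM in young control, 33.7 CPM in young KAP, 32.3 CPM in aged control and 32.2 CPM in aged KAP, from 1039 to 1327 UMIs per library. Agps was at 150, 153, 84.0 and 144 CPM in the same order, and the 95% Poisson interval of the aged control value (81.2 to 86.8 CPM) lay far below those of the other 3 libraries (the lowest bound was 140 CPM). Far1 was at 191, 179, 164 and 176 CPM, again lowest in aged control but within 0.10 on the log2 scale of the next library. Thus the ether bond enzyme was low in 1 library, whereas the enzyme before it in the pathway was not.

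Among the oxidative and branched-chain enzymes, Amacr was at 249, 282, 192 and 248 CPM in the S3-like cells of young control, young KAP, aged control and aged KAP. Cat was at 778, 643, 720 and 636 CPM, lower in both KAP libraries than in both controls. Dao varied least, at 168, 181, 180 and 186 CPM. Hao2 was at 237, 177, 577 and 647 CPM, with both aged libraries well above both young ones. These 4 genes therefore showed 4 different patterns over the libraries.

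The coenzyme A hydrolase and the membrane protein shared the low aged control value with Agps and Amacr. Nudt19 was at 603 CPM in young control (95% interval 595 to 611), 966 in young KAP (955 to 977), 363 in aged control (357 to 369) and 755 in aged KAP (746 to 765), so no intervals overlapped, and each KAP library was above the control of its age. Mpv17l was at 297, 279, 212 and 282 CPM, with 3 libraries close together and the aged control library below them.

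**Figure D2:**
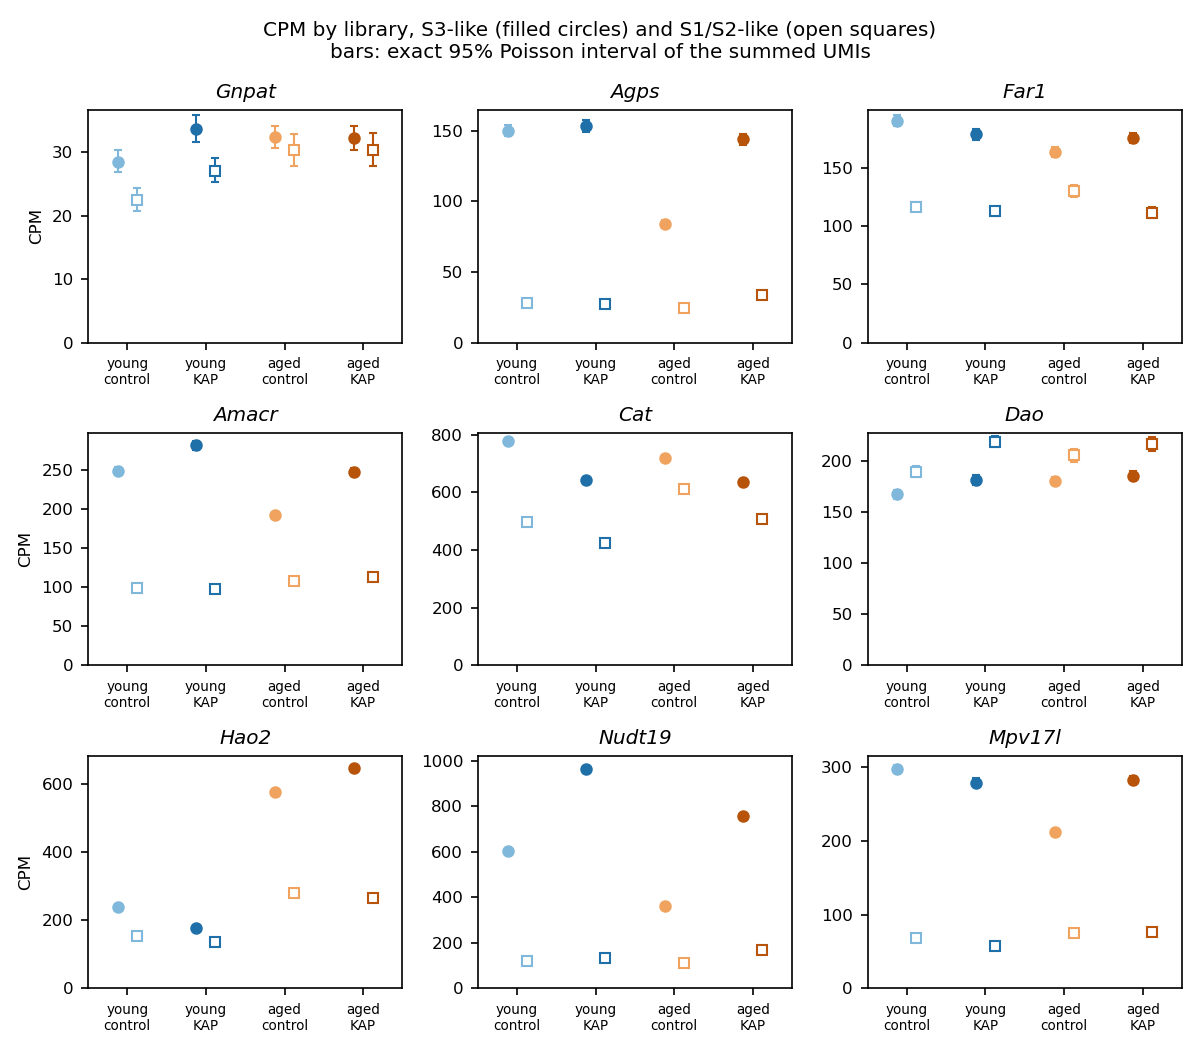
CPM of the 9 genes (one panel each, linear axis from 0) by library in S3-like cells (filled circles) and S1/S2-like cells (open squares), with bars for the exact 95% Poisson interval of the summed UMIs. The S3-like aged control point is the low one for Agps (84.0 CPM), Amacr (192 CPM), Nudt19 (363 CPM) and Mpv17l (212 CPM), while in S1/S2-like cells it is lowest for Agps and Nudt19 only, by less than 0.2 on the log2 scale.

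Against the young control library, S3-like cells of the aged control library had lower Agps (log2 ratio -0.84, 95% interval -0.90 to -0.78), Nudt19 (-0.73, -0.76 to -0.70), Mpv17l (-0.49, -0.53 to -0.45), Amacr (-0.37, -0.42 to -0.33) and Far1 (-0.22, -0.27 to -0.17). Hao2 was higher (1.28, 1.25 to 1.32). Gnpat (0.18), Dao (0.11) and Cat (-0.11) stayed within 0.2, the fold limit used for counting. The Far1 value fell inside the limit without doublet removal (-0.196), as a mean over cells (-0.193) and after thinning to 2000 UMIs (-0.07). Thus 5 of the 9 genes, Far1 included, were lower by at least 0.2, against 17.2% of the 6516 genes compared, and 1 was higher, against 24.8%. The median log2 ratio was -0.22 over the 9 genes and 0.030 over all genes. It was -0.08 over the 9 genes after thinning to 2000 UMIs. Because the genes were chosen with these values known, nothing is read from these shares.

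Between the aged libraries, the aged KAP library was the higher one for Nudt19 (log2 ratio 1.06, 1.03 to 1.09), Agps (0.78, 0.71 to 0.84), Mpv17l (0.42, 0.37 to 0.46) and Amacr (0.37, 0.32 to 0.41). These 4 of 9 compare with 11.1% of 6548 genes higher by at least 0.2, and 0 of 9 with 12.7% lower. Hao2 (0.17), Far1 (0.10), Dao (0.04), Gnpat (0.00) and Cat (-0.18) lay inside the limit. The same 4 genes made up the higher group here and belonged to the lower group above, and both comparisons use the aged control library.

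In young mice the comparison of KAP with control gave another picture. Nudt19 was again higher in the KAP library (log2 ratio 0.68, 0.65 to 0.71), as was Gnpat (0.24, 0.12 to 0.37). Hao2 (-0.42, -0.47 to -0.37) and Cat (-0.27, -0.30 to -0.25) were lower. Agps (0.03) and Mpv17l (-0.09) lay within 0.1 of no difference. The 2 genes higher compare with 15.0% of all genes and the 2 lower with 14.7%. The Gnpat value was not kept when each cell was thinned to 2000 UMIs, where it was -0.03.

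The fourth comparison, aged KAP against young KAP, leaves the aged control library out. Hao2 was higher in the aged KAP library by 1.87 on the log2 scale (1.82 to 1.91), the 1 gene of 9 on that side, against 20.7% of all genes. Nudt19 was lower (-0.35, -0.38 to -0.33), also 1 gene, against 16.3%. Amacr was just inside the limit (-0.19), and Agps (-0.09), Gnpat (-0.06), Far1 (-0.02), Cat (-0.02), Mpv17l (0.02) and Dao (0.03) were within 0.1. For Agps this held for the sum over the class and not for every cluster, since its ratio was -0.73 in cluster 4 and -0.45 in cluster 8, and -0.21 with clusters weighted as in young control. Amacr passed the limit under 6 alternatives, at -0.31 to -0.21. Whether the age difference itself differs between the genotypes cannot be tested with 1 library per condition.

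A library was said to stand apart for a gene when its log2 CPM lay at least 0.2 below the lowest, or above the highest, of the other 3. In S3-like cells the aged control library stood apart below for 4 of the 9 genes, Agps (gap -0.78), Nudt19 (-0.73), Mpv17l (-0.40) and Amacr (-0.37), against 4.18% of 6484 genes. By size of this gap they ranked 24, 29, 79 and 90 from the most negative of the 6484 genes. With a limit of 0.5 there were 2 of 9 against 0.787%. The aged control library stood apart above for 0 of 9 (5.86% of all genes).

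The other libraries were counted the same way in S3-like cells. The young control library stood apart for 0 of 9 genes on either side (3.44% of all genes above and 5.91% below). The young KAP library was apart above for 1 gene, Nudt19 (3.25%), and below for 1, Hao2 (5.35%). The aged KAP library was apart for 0 of 9 above (3.19%) and 0 of 9 below (2.79%). Among all genes, then, the aged control library did not have the largest share of low outlying genes.

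**Figure D3:**
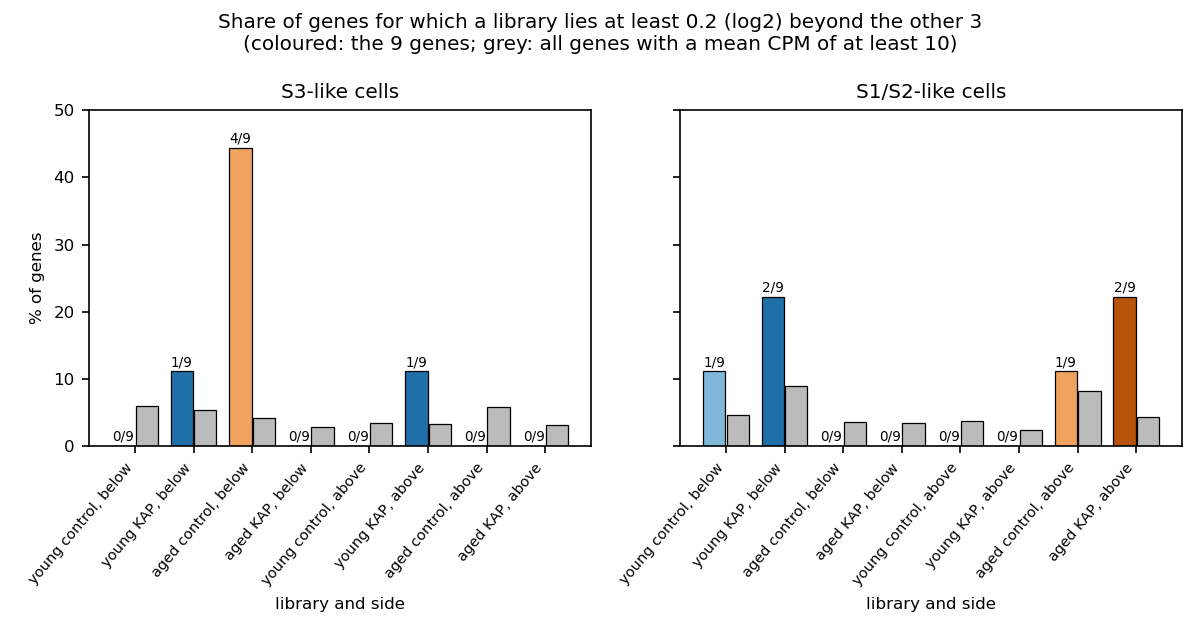
Share of genes for which each library lies at least 0.2 (log2) below or above the other 3, for the 9 genes (coloured bars, with counts) and for all genes with a mean of at least 10 CPM (grey bars), in S3-like and S1/S2-like cells. The tallest coloured bar is the aged control library on the low side in S3-like cells, 4 of 9 against 4.18%.

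Values of other kinds moved with the aged control library in S3-like cells. Its S3-like cells were the deepest, with a median of 24156 UMIs against 20382, 16546 and 20358 in young control, young KAP and aged KAP, and its mitochondrial share of 24.0% lay inside the range of the other 3 (22.6% to 24.8%). Summed over 7 androgen-responsive kidney genes, its level was 56863 CPM against 76648, 73303 and 74151 CPM, but Kap carries nearly all of that sum. The other 6 summed to 1448, 2228, 1227 and 2058 CPM in young control, young KAP, aged control and aged KAP. The sum over 15 dissociation and stress genes was highest there, at 1914 CPM against 1642, 1534 and 1359 CPM. So was the sum over 3 female-biased kidney genes, at 167 CPM against 103, 83.9 and 59.0 CPM. Most of the latter sum came from Cyp4a14, the 1 gene of the 3 with a mean of at least 10 CPM. All these are values of the same libraries. The part of depth and of these gene groups in the low values of Agps, Nudt19, Mpv17l and Amacr was not tested. After thinning every cell to 2000 UMIs, the gaps of the 4 genes were -0.58, -0.75, -0.45 and -0.37.

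The androgen-responsive genes are set out because Nudt19 is known as one of this kind and because the Cre promoter is another. Kap, from which the Cre promoter was taken, was at 75200, 71075, 55636 and 72093 CPM in young control, young KAP, aged control and aged KAP S3-like cells. Odc1, the enzyme that starts polyamine synthesis, was at 597, 1160, 415 and 694 CPM, in the same order of libraries as Nudt19. Slco1a1, an organic anion transporter, was at 234, 354, 79.8 and 275 CPM. Slc7a13, an amino acid transporter that also served as an S3 marker, did not share this order, at 449, 494, 588 and 876 CPM. Of the 6 genes of this list with a sufficient level, the aged control library stood apart below for 3, Kap, Odc1 and Slco1a1. Against aged control all 6 were higher in aged KAP by at least 0.2 (median 0.58; 11.1% of all genes), and against young control 3 were lower and 1 higher in aged control (median -0.30; 17.2% and 24.8%). Slc7a13 and Cyp7b1 of this list were also among the markers that named the S3-like class. In S1/S2-like cells the aged control library stood apart below for 0 of 5 genes of the list (3.55% of all genes). Of these 5, 3 were higher and 0 lower in aged than in young control (median 0.47), against 34.9% and 19.2%. In aged KAP against aged control 2 were higher and 0 lower (median 0.18), against 10.3% and 16.1%.

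**Figure D4:**
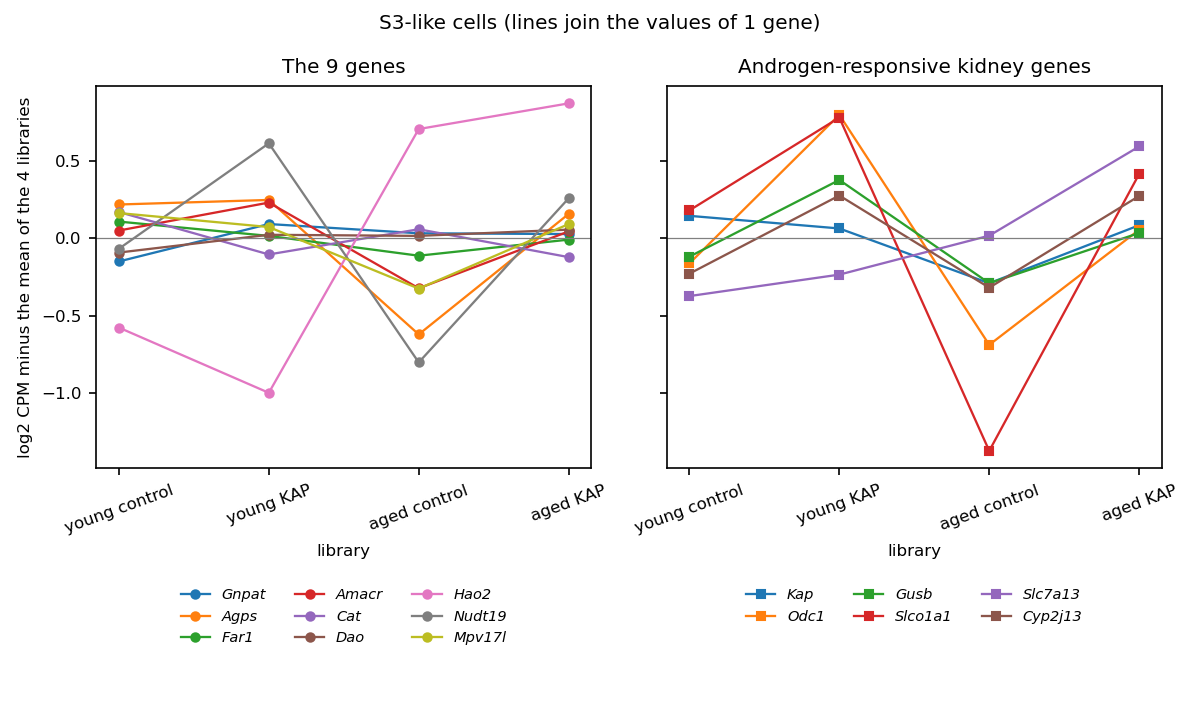
Log2 CPM in S3-like cells minus the gene's mean over the 4 libraries, for the 9 genes (left) and for 6 androgen-responsive kidney genes (right). Each line joins the values of 1 gene and has no error bars. Nudt19, Agps, Mpv17l and Amacr dip in the aged control library, as do Slco1a1, Odc1, Kap, Cyp2j13 and Gusb on the right, while Hao2 and Slc7a13 are at their highest in aged KAP.

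The genes nearest to Nudt19 in their S3-like pattern were found among 2280 genes with a mean of at least 50 CPM, by the Euclidean distance of log2 CPM centred on the mean of the 4 libraries. They were Mkrn1 (distance 0.31), Odc1 (0.31), 1110008P14Rik (0.35), Hsd17b11 (0.42) and Ly6a (0.45). Mkrn1 was at 110, 141, 59.9 and 105 CPM and Hsd17b11 at 209, 307, 149 and 208 CPM in young control, young KAP, aged control and aged KAP. Both were thus highest in young KAP and lowest in aged control, like Nudt19. For the median profile of the 9 genes the nearest were Rap1b, Ube2k, Psmc6, Akr1e1 and Tmem223, all within 0.053.

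The S3-like class mixes 4 large clusters, and the gaps were recomputed in each. In all 4 the aged control library stood apart below for the same 4 genes, Agps, Nudt19, Mpv17l and Amacr. The share of all genes was 3.61% in cluster 0, 7.15% in cluster 4, 9.50% in cluster 8 and 8.23% in cluster 14. Nudt19 was at 597, 970, 347 and 752 CPM in cluster 0 and at 734, 1369, 428 and 885 CPM in cluster 8, for young control, young KAP, aged control and aged KAP. Its gap was between -0.78 and -0.73 in every one of the 4. Agps varied more. It was at 179, 182, 102 and 181 CPM in cluster 14 but at 94.2, 82.7, 42.4 and 49.7 CPM in cluster 4, where the aged KAP value was also low and the gap was -0.23. The Amacr gap in cluster 4 was -0.20, at the limit. These cells are those of the whole class, so the clusters are a breakdown and not a repeat.

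S1/S2-like cells, where the study saw no deletion of Tfeb, are other cells of the same 4 libraries. Nudt19 was at 118, 135, 110 and 170 CPM in young control, young KAP, aged control and aged KAP, and Agps at 27.7, 27.5, 24.6 and 33.5 CPM. Mpv17l was at 68.1, 57.9, 74.7 and 76.7 CPM and Amacr at 99.2, 98.3, 108 and 114 CPM. The aged control library stood apart below for 0 of the 9 genes (3.55% of 7218 genes), and for Mpv17l and Amacr it was not the lowest library. The nearest were Agps, with a gap of -0.16, and Nudt19, with -0.10. Under 5 other settings the count was 1 or 2, all of them from Agps, Nudt19 and Mpv17l, for example Agps (-0.31) and Nudt19 (-0.28) in cells with at most 20% mitochondrial UMIs. No share over all genes is given for those settings, so nothing is read from these counts.

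Between the control libraries, S1/S2-like cells had higher Hao2 (log2 ratio 0.86, 0.81 to 0.92), Gnpat (0.43, 0.26 to 0.60) and Cat (0.30, 0.26 to 0.34) in aged than in young mice. The Hao2 ratio was 0.32 with clusters weighted as in young control and 0.39 at resolution 0.5, and by cluster it ran from -0.02 (cluster 13) and 0.13 (cluster 5) to 0.52 (clusters 7 and 9). That of Cat was 0.51 in cells with at most 20% mitochondrial UMIs. These 3 of 9 compare with 34.9% of 7269 genes, and 0 of 9 were lower by at least 0.2, against 19.2%. Agps (-0.17, -0.34 to -0.00) and Nudt19 (-0.10, -0.18 to -0.02) leaned to the low side, but by less than the limit. In the aged KAP library, Nudt19 (0.63, 0.55 to 0.71) and Agps (0.44, 0.27 to 0.62) were higher than in aged control, 2 of 9 against 10.3%, and Cat (-0.27) and Far1 (-0.22) were lower, 2 of 9 against 16.1%. The Nudt19 ratio stayed at 0.45 or more under all alternatives run, but by cluster it ran from 0.19 (cluster 13) and 0.31 (cluster 7) to 0.69 (cluster 5) and 0.87 (cluster 9). The Agps ratio fell to 0.14 at resolution 0.5 and 0.09 with clusters weighted as in young control, and by cluster it ran from -0.51 (cluster 13) and -0.18 (cluster 7) to 0.78 (cluster 9). That of Far1 fell to -0.11 in cells with at most 20% mitochondrial UMIs, and that of Cat was -0.41 as a mean over cells.

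In young S1/S2-like cells the KAP library had higher Gnpat (0.27) and Dao (0.21), 2 of 9 against 10.0%, and lower Mpv17l (-0.23) and Cat (-0.22), 2 of 9 against 17.4%. The Gnpat difference turned to -0.16 after thinning to 2000 UMIs, and the Dao difference fell to 0.17 both in cells with at most 20% mitochondrial UMIs and with mitochondrial genes left out of the total. Nudt19, at 0.19, was 0.81 in cells with at most 20% mitochondrial UMIs, 0.32 with clusters weighted as in young control and -0.04 after thinning. The Mpv17l and Cat differences turned to 0.23 and 0.02 in cells with at most 20% mitochondrial UMIs. Between aged KAP and young KAP, 6 of 9 genes were higher, against 33.9%, and 0 of 9 lower, against 17.1%. The 6 were Hao2 (0.96), Mpv17l (0.40), Nudt19 (0.34), Agps (0.28), Cat (0.25) and Amacr (0.21). Those of Nudt19, Mpv17l and Amacr turned negative (-0.13, -0.06 and -0.03) in cells with at most 20% mitochondrial UMIs, and those of Agps, Nudt19 and Mpv17l (-0.14, -0.16 and -0.01) when clusters were given the weights of the young control library, with which that of Hao2 was 0.63. The S1/S2-like clusters were very unequally filled. Cluster 7 held 491, 521, 111 and 145 cells and cluster 13 held 430, 434, 77 and 78 cells, against 242, 227, 440 and 319 cells in cluster 9.

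Cluster by cluster, the aged control library was low in some S1/S2-like cells. In cluster 9 it stood apart below for 2 genes, Agps (gap -0.78) and Nudt19 (-0.66), against 4.47% of all genes. Nudt19 was there at 190, 305, 120 and 218 CPM and Agps at 51.7, 62.3, 23.3 and 40.0 CPM in young control, young KAP, aged control and aged KAP. In cluster 5 it stood apart for Nudt19 alone (-0.61, with 121, 144, 79.1 and 128 CPM), against 11.1%. In cluster 7 it did so for Amacr alone (-0.34), against 8.93%, and in cluster 13 for 0 of 9, against 8.68%. Nudt19 was nearly level in cluster 13, at 52.2, 50.4, 49.2 and 56.1 CPM. So the 2 clusters with the most Nudt19 were those in which its aged control value stood apart, while in the sum over the class, to which cluster 9 gave more cells in the aged libraries, it did not.

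**Figure D5:**
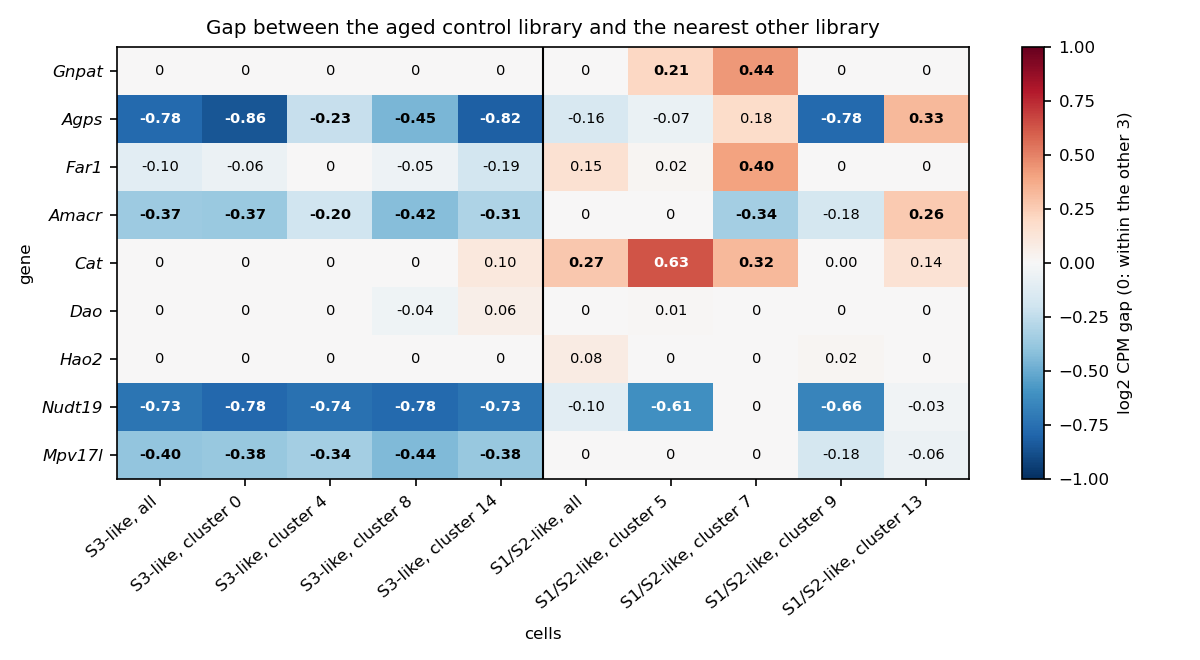
Log2 CPM gap between the aged control library and the nearest other library (0 where it lies within the other 3) for the 9 genes in S3-like and S1/S2-like cells and in their clusters. Bold marks gaps of at least 0.2. Agps, Amacr, Nudt19 and Mpv17l are negative in every S3-like column. Among the S1/S2-like columns the bold negative values are Agps (-0.78) and Nudt19 (-0.66) in cluster 9, Nudt19 (-0.61) in cluster 5 and Amacr (-0.34) in cluster 7. Cat is positive in S1/S2-like cells.

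Cat went the other way in S1/S2-like cells. It was at 497, 426, 612 and 508 CPM in young control, young KAP, aged control and aged KAP, so the aged control library lay 0.27 above the next. In cluster 5 it was at 294, 278, 538 and 347 CPM. Hao2 was at 153, 135, 279 and 264 CPM, and both aged libraries were again above both young ones. Far1 was at 117, 113, 130 and 112 CPM, highest in aged control and lowest in aged KAP. Dao was at 190, 219, 206 and 217 CPM, lowest in young control and highest in young KAP.

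Outside the proximal tubule, levels of Nudt19 and Agps were lower than in S3-like cells. Nudt19 was at 104, 99.9, 99.3 and 96.0 CPM in thick ascending limb-like cells and at 102, 105, 91.1 and 99.6 CPM in distal convoluted tubule-like cells of young control, young KAP, aged control and aged KAP. In collecting duct principal-like cells it was at 78.2, 80.3, 94.3 and 97.3 CPM. Agps was at 27.3, 26.2, 28.1 and 22.0 CPM in thick ascending limb-like and at 23.0, 22.6, 23.4 and 22.5 CPM in distal convoluted tubule-like cells. The aged control library was thus not the low one for Agps in these classes. In thick ascending limb-like cells the median log2 ratio of aged KAP over aged control was -0.35 over the 9 genes and -0.05 over all 7822 genes compared. Hao2 (-1.02, -1.39 to -0.66), Amacr (-0.78, -1.20 to -0.37), Cat (-0.36, -0.51 to -0.21), Agps (-0.35, -0.62 to -0.08) and Far1 (-0.30, -0.49 to -0.11) were lower, as was Mpv17l (-0.29) with an interval that nearly reached 0. Gnpat (-0.15), Nudt19 (-0.05) and Dao (-0.35, from 15 and 14 UMIs) had intervals that included 0. With Dao, 7 of 9 genes were lower by at least 0.2, against 20% of all genes, and 0 of 9 higher, against 7.99%. In this and the following classes the 9 genes were counted whatever their level, whereas the shares cover genes with a mean of at least 10 CPM. Dao was at 1.81 and 1.42 CPM in thick ascending limb-like cells of aged control and aged KAP. In young KAP over young control the median in these cells was -0.26 over the 9 genes and -0.05 over all genes. There 5 of 9 were lower by at least 0.2, against 21.1%, and 0 of 9 higher, against 10%. The reference genes had a median of 0.90% in young control and 0.47% in young KAP. Both aged Hao2 values lay below the highest reference gene, as given above. Amacr in aged KAP (4.29% of its proximal level) also lay below the highest reference gene (4.65%). The reference genes had a median of 0.97% in aged control and 0.34% in aged KAP, so the part of background in these ratios was not tested. The 9-gene median of aged KAP over aged control was also negative in endothelial-like (-0.35, all genes -0.005), mesangial/mural-like (-0.38, 0.03) and myeloid-like cells (-0.79, -0.05). There 5, 6 and 7 of 9 were lower by at least 0.2, against 19.9%, 25.7% and 35% of all genes. The numbers higher were 0, 3 and 0, against 17.7%, 31.3% and 25.5%. In the same 3 classes the reference genes had a median of 2.54%, 4.07% and 1.77% in aged control and 1.29%, 1.39% and 0.92% in aged KAP. The part of background in these ratios was not tested. In myeloid-like cells Amacr and Mpv17l were at 0 CPM in aged KAP and were counted as lower. The 9-gene median of aged KAP over aged control was -0.24 in distal convoluted tubule-like and 0.04 in connecting tubule-like cells. For young KAP over young control it was -0.23, -0.17 and -0.70 in endothelial-like, mesangial/mural-like and myeloid-like cells (all genes -0.02, 0.07 and -0.01). There 5, 4 and 6 of 9 were lower by at least 0.2, against 23.7%, 23.6% and 34.8%. The numbers higher in young KAP were 1, 0 and 1, against 19.7%, 37.5% and 33.8%. Nudt19 stood apart below in the aged control library in type B intercalated-like cells (134, 134, 108 and 136 CPM, gap -0.30), 1 of 9 genes against 7.98%. In podocyte-like cells, with 46 cells in aged control, Nudt19 (48.2, 29.3, 21.1 and 33.5 CPM, gap -0.48) and Amacr (gap -0.61, at 8.11 CPM) did so, 2 of 9 against 13.3%. On the high side the aged control library stood apart for 3 of 9 genes in type A intercalated-like cells, against 22.2%, and for 2 of 9 in type B, against 24.2%. Agps was among them in both (gaps 1.04 and 0.70), but the aged control library held only 47 type A and 70 type B cells. Also among them were Dao in type A, at 7.98 CPM, and Hao2 in type B, at 4.27 CPM. In mesangial/mural-like cells, with 119 cells in aged control, that library stood apart above for 5 of 9 genes, against 12.4%. They were Hao2, Cat, Gnpat, Dao and Far1, of which Dao and Hao2 reached only 9.71 CPM there.

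Across the 56 class and library units with at least 20 cells, some of the 9 genes followed each other. Pearson's r of log2(CPM + 1) was 0.884 between Cat and Dao, 0.871 between Cat and Hao2 and 0.876 between Nudt19 and Mpv17l, whereas it was -0.066 between Gnpat and Agps. The units share libraries and depth, and the values mainly reflect whether a gene is proximal, so r is given as a description. By the same measure over 9345 genes, the nearest genes were Hibadh to Nudt19 (0.893), Rida to Mpv17l (0.893), Gstz1 to Amacr (0.926), Slc22a28 to Cat (0.927), Gm19950 to Dao (0.95), AI314278 to Hao2 (0.906), Vps8 to Agps (0.748), Defb29 to Far1 (0.776) and Ak6 to Gnpat (0.863).

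The other peroxisomal genes were counted in the same way in S3-like cells, where the share of all genes was 4.18% for the aged control library standing apart below, 24.8% higher and 17.2% lower between the controls, and 11.1% higher and 12.7% lower in aged KAP against aged control. In ether lipid synthesis the aged control library was low for 1 of 7 genes, Agps. Chpt1, which adds the choline head group, was at 2835, 2726, 2612 and 2693 CPM, and Tmem189, which makes the vinyl ether bond of plasmalogens, was at 127, 115, 98.1 and 109 CPM. Of the 7 genes, 3 were lower and 0 higher in aged than in young control (median -0.19), and 1 was higher and 0 lower in aged KAP than in aged control (median 0.07). In peroxisome biogenesis it was low for 0 of 13 genes. Pex7, the import receptor that Agps needs, was at 70.4, 71.7, 69.7 and 71.2 CPM, and Pex11a, which promotes division of peroxisomes, was at 43.3, 55.6, 57.7 and 61.6 CPM.

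For peroxisomal beta-oxidation the aged control library stood apart below for 1 of 20 genes, and for alpha-oxidation and bile acid side chains for 1 of 6, Amacr. In beta-oxidation, 5 genes were higher and 3 lower in aged than in young control (median 0.07). Acaa1b, a thiolase, was at 322, 432, 489 and 510 CPM, whereas Crot, a carnitine acyltransferase, was at 190, 159, 133 and 156 CPM and Pecr, an enoyl-CoA reductase, at 750, 803, 638 and 654 CPM. Phyh, which starts alpha-oxidation, was at 528, 586, 471 and 543 CPM. For oxidases and hydrogen peroxide handling it was 0 of 10, with 5 genes higher and 2 lower (median 0.20). Prdx1, a peroxiredoxin, was at 2146, 1965, 1368 and 1498 CPM and Sod1 at 363, 364, 471 and 489 CPM, so that both split by age in opposite directions. Among 14 genes of coenzyme A metabolism, membrane and other functions it was 3, Nudt19, Mpv17l and Tysnd1, a protease that processes peroxisomal enzymes (34.3, 36.5, 26.8 and 37.5 CPM).

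For targets of the nuclear receptor PPARalpha, many of them peroxisomal, the aged control library stood apart below for 0 of 15 (4.18% of all genes) and above for 3 (5.86%). Between the control libraries 8 of 16 were higher (24.8% of all genes) and 1 lower (17.2%) in aged mice, with a median of 0.30. Against aged control 2 were higher (11.1%) and 5 lower (12.7%) in aged KAP, with a median of -0.08. Cyp4a14, a fatty acid hydroxylase that is also the 1 female-biased gene with a sufficient level, was at 93.1, 79.3, 154 and 54.2 CPM, highest where Nudt19 was lowest. Of 11 dissociation and stress genes the aged control library was apart below for 0 and above for 3, and of the 11 proximal reference genes below for 1, Kap.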

How the data were processed

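Single cells of the renal cortex were prepared with a 10x Genomics Chromium 3' kit, 1 pooled library per condition. The authors aligned the reads and counted UMIs with Cell Ranger 6.0.0 (mm10), corrected the counts for free RNA with SoupX and then used Seurat 4.4.0; the deposited matrices hold whole-number UMI counts after that correction, with 2.90% to 12.9% of entries stored as 0. How far this subtraction lowered each gene was not tested. Total counts were 125729484 to 194747936 per library.

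Following the study's filters, cells with at least 200 genes, at least 1000 detected features and at most 50% mitochondrial counts were kept, and predicted doublets (0.8% per 1000 cells) were removed with a nearest-neighbour score written for this work, where the study used DoubletFinder. Each cell was normalised to a total of 10000 on a log scale, and 30 principal components of the 2000 most variable genes were integrated over libraries with an implementation of Harmony also written for this work, and cells were clustered by Leiden at resolution 1 (leidenalg 0.10.2, igraph 0.11.9, scikit-learn 1.9.0, numpy 2.4.6, pandas 2.3.3, scipy 1.17.1, Python 3.11.15). Classes were named from fixed markers, at least 3 of them detected, and carry the suffix "-like", and their borders may differ from the study's. Counts were summed per class and library and divided by all counts (CPM). Intervals are exact 95% Poisson intervals of a level and exact 95% binomial intervals of a ratio, and cover counting error only. A log2 ratio of 0.2, the fold limit in the study's methods, was used for counts of genes. Shares over all genes and counts within the other lists cover genes with a mean of at least 10 CPM and a UMI in every library compared. The 9 genes were counted whatever their level, so outside the proximal tubule their counts include genes below that level. The 9 genes and all lists were chosen with earlier results of these data known.

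The genes named from each list were those with the largest or smallest log2 ratio among genes with a mean of at least 50 CPM, up to 3 each way, and those most like one of the 9 genes. Tysnd1, Gusb and Cyp7b1 were named after their values were seen. Promoter windows came from RefSeq tables (GRCm38.p6). The procedure was tested on simulated counts for S3-like cells of aged against young controls (6495 genes, 200 changed): the sign was right for 100% and 94.9% of intervals held the true value. The simulated counts held only counting error and the changes put in, with no other variation between libraries. They therefore check the arithmetic and say nothing about differences between pools. Figures were drawn with matplotlib 3.10.9. Alternatives covered the mitochondrial limit, doublets, resolution, integration, scaling, thinning, cluster weights and the fold limit.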

Additional observations from a re-analysis of the deposited data

How the results depend on the processing

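In S3-like cells the aged control library stood apart below for 4 of the 9 genes under every alternative run at a limit of 0.2, and for 2 with a limit of log2 0.5. The share of all genes was 4.18% in the main setting and 0.787% at log2 0.5, and is not given for the other alternatives. The genes were chosen with these values known and the alternatives reuse the same libraries. The repeated count is therefore a description and not support. Of the log2 ratios of single genes recomputed under the alternatives, 464 moved by no more than their counting interval, 210 moved further without a change of sign past the limit, and 10 reversed. With log2 0.5 as the limit, S3-like counts fell to 2 lower in aged against young control (3.07% of all genes) and 2 higher in aged KAP against aged control (2.03%). They fell to 1 higher (1.36%) and 0 lower (1.86%) in young KAP against young control, and to 0 lower (2.65%) in aged KAP against young KAP. S1/S2-like counts fell to 1 higher (9.92%), then 1 higher (1.42%) and 0 lower (1.82%), then 0 higher (0.806%) and 0 lower (1.37%), then 1 higher (9.65%) in the same order of comparisons. For the counts in the following paragraphs no share over all genes is given, so they describe only how the counts moved.

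With at most 20% mitochondrial UMIs, S3-like cells had 2 genes higher in aged against young control and 1 lower in aged KAP against aged control. S1/S2-like cells had 2 lower in aged against young control, 1 lower in aged KAP against aged control, 4 higher and 0 lower in young KAP against young control, 1 higher in aged KAP against young KAP, and 2 with the aged control library apart below. Reversed there were Cat (0.019) and Mpv17l (0.23) between the young libraries and Amacr (-0.028), Nudt19 (-0.13) and Mpv17l (-0.064) between the KAP libraries.

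With clusters weighted as in the young control library, S3-like cells had 2 higher in aged against young control and 3 lower in aged KAP against young KAP. S1/S2-like cells had 2 lower in aged against young control, 0 lower in young KAP against young control, 1 higher and 1 lower between the KAP libraries, and 2 with aged control apart below. Agps (-0.14), Nudt19 (-0.16) and Mpv17l (-0.010) reversed between the KAP libraries. With the mean over cells, S3-like counts were 1 lower in aged KAP against aged control and 1 higher in young KAP against young control, and S1/S2-like counts 1 lower in aged against young control, 1 higher and 1 lower between the young libraries, 3 higher between the KAP libraries and 1 with aged control apart.

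Thinned to 2000 UMIs, S3-like cells had 1 lower in aged KAP against aged control, 1 higher between the young libraries and 2 lower between the KAP libraries. S1/S2-like cells had 5 higher and 1 lower in aged against young control, 0 higher and 1 lower between the young libraries and 1 with aged control apart. Gnpat reversed between the young libraries, to -0.031 in S3-like and -0.16 in S1/S2-like cells. Without mitochondrial genes in the total, 1 gene was higher between the young libraries in S3-like and 1 in S1/S2-like cells, and 1 lower in S1/S2-like aged against young control. With median-of-ratios size factors, 2 were lower between the KAP libraries in S3-like cells. In S1/S2-like cells 1 was lower in aged against young control, 1 lower in aged KAP against aged control, 0 lower between the young libraries, 3 higher between the KAP libraries and 1 with aged control apart. The count of S3-like genes lower between the KAP libraries was 2 at resolution 0.5, 2 without integration and 2 without the cluster of near-equal segment scores, an alternative chosen after seeing the data. In S1/S2-like cells 1 was lower between the young libraries at resolution 0.5 and 1 lower in aged against young control without doublet removal. The cause of these changes was not tested.

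No paired analysis was possible because each condition has 1 library, and for the same reason there is no replicate to leave out. Other scalings shifted all genes by less than 0.1 on the log2 scale. Counting error is small for these genes in proximal cells, so the limit is the lack of a second pool per condition. In each comparison the age or the genotype compared cannot be told apart from pool and library preparation.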
